A study of Mus musculus with 2 samples.

Results

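Mo/KC was the name that the deposited cell table gave to the monocytes and Kupffer cells of the mouse fetal liver. It covered 114 of 10537 kept cells (1.08%, 95% confidence interval 0.893 to 1.30%), and these cells were chosen by the cell type column of that table alone. Library 1 held 56 Mo/KC cells among 5480 (1.02%), and library 2 held 58 among 5057 (1.15%). All of them belonged to cluster 21 of the deposited clustering, which held no cell of another type. No cell barcode was shared between the Mo/KC cells of the libraries, whereas 31 barcodes were shared over all kept cells.

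The samples were 2 technical replicate libraries from the dissociated liver of 1 wild-type C57BL/6 embryo (C57BL/6J in the methods) at E12.5, with no transgene, treatment or second genotype. Debris, dead cells and doublets had been removed by cell sorting before droplet encapsulation, with no selection for a lineage marker stated. The assay counted RNA molecules by unique molecular identifiers (UMIs), so each UMI stands for 1 captured molecule whatever the length of the gene. Because both libraries came from the same liver, no test between animals was possible, and the intervals below cover counting error only.

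Monocytes are blood cells that form from progenitors in the fetal liver, and Kupffer cells are the macrophages that reside in the liver, seeded from yolk sac progenitors before birth. In the fetal liver, macrophages sit at the centre of erythroblastic islands, where they engulf the nuclei that maturing erythroblasts expel and recycle their iron. Complement C1q, scavenger receptors and the heme enzyme Hmox1 are typical of such macrophages, whereas Ly6c2 and the chemokine receptor Ccr2 are typical of monocytes.

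The Mo/KC cells were deeply covered, but the depth differed in its lower limit between libraries. In library 1, the cells held 678685 UMIs in all, from 776 to 29697 per cell with a median of 12888. In library 2, they held 885398 UMIs, from 4427 to 28144 per cell with a median of 15242. The lowest kept cell of any type in library 2 had 4387 UMIs, and 12 Mo/KC cells of library 1 lay under that number. One Mo/KC cell had more than 2 times the median UMIs of its library, and none had more than 3 times.

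All 4 genes that mark these cells reached their highest level here, in CPM, the UMIs of a gene summed over the cells of a type and scaled to a total of 1000000. Fcgr1, the high-affinity IgG receptor CD64, had 228 CPM in library 1 and 139 in library 2 (178 CPM pooled, 95% Poisson interval 158 to 200). It reached 1.85 CPM in the 287 granulocytes (G) and 2.43 CPM in the 421 hematopoietic stem and progenitor cells, which the table spells HPSC. Csf1r, the receptor for the growth factor CSF1 on which macrophages depend, had 385 and 306 CPM (340 pooled, 312 to 370), against 26.1 CPM in G and 22.2 CPM in HPSC. Adgre1, which encodes the macrophage antigen F4/80, had 166 and 91.5 CPM (124 pooled, 107 to 143), against 18.5 CPM in G and 1.06 CPM in HPSC. C1qa, the A chain of complement C1q, had 582 and 292 CPM (418 pooled, 387 to 451), against 0.792 CPM in G and no UMI in HPSC. Each marker was higher in library 1 than in library 2, and in each library the Mo/KC level lay above that of every other cell type. Since cells were clustered on their expression, these levels describe the group and are not a test of it.

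**Figure D1:**
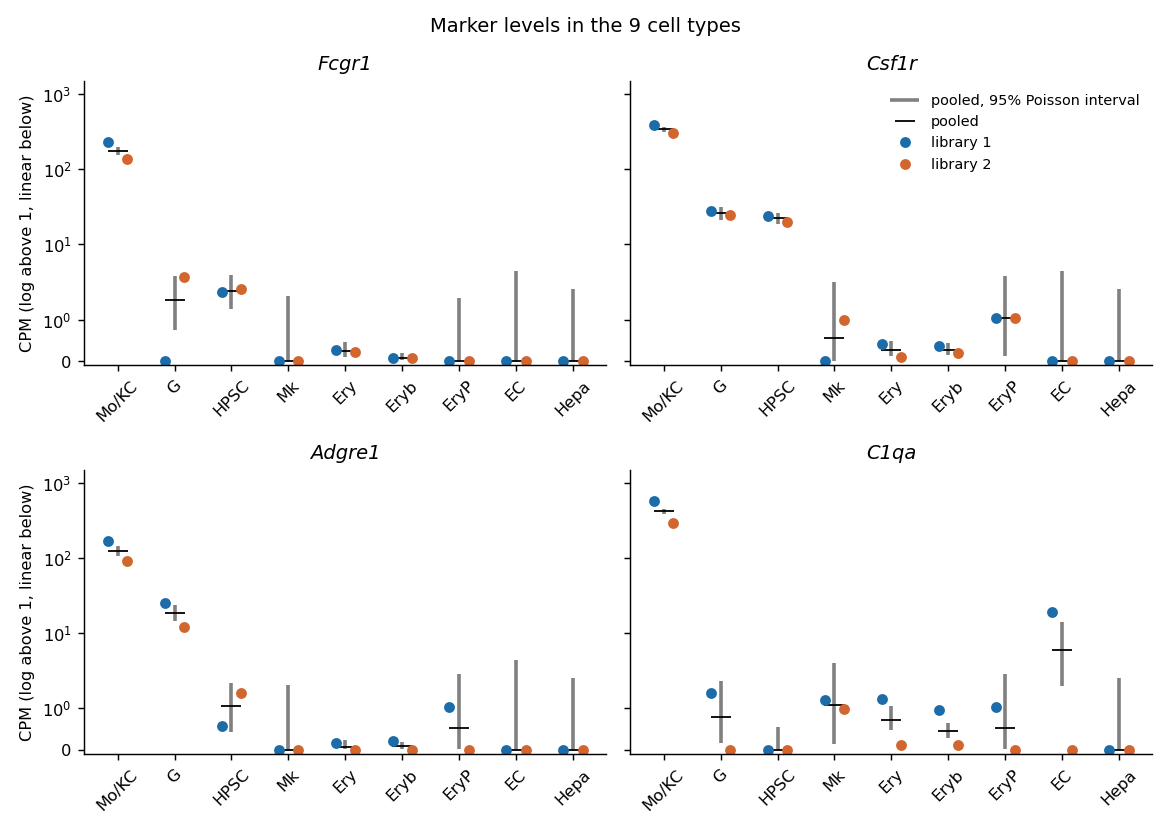
CPM of the 4 marker genes (y axis, logarithmic above 1 and linear below) in the 9 cell types (x axis), with points for each library, dashes for the pooled value and bars for its 95% Poisson interval. Mo/KC stands highest in every panel, and the next levels are those of G and HPSC for Csf1r (26.1 and 22.2 CPM) and of G for Adgre1 (18.5 CPM).

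The markers were not spread over the cells in the same way. Csf1r had a UMI in 96 of 114 cells and Fcgr1 in 91, but Adgre1 in 70 and C1qa in 40. Since a deep cell shows a gene more often, each cell was also thinned to 3600 UMIs, which left out 10 shallower cells of library 1. The share of cells with a UMI was then 61.2% for Csf1r, 44.9% for Fcgr1, 32.4% for Adgre1 and 26.8% for C1qa, as the mean expected over random draws. Erythroblasts (Eryb), which should lack these genes, gave thinned shares of 0.108, 0.0419, 0.0330 and 0.193%, at a median of 7287 UMIs per cell against 13552 in Mo/KC. Free RNA, measured in barcodes with 1 to 50 UMIs, held 46.6 and 5.10 CPM of C1qa by library and 14.7 and 2.55 CPM of Fcgr1. For Csf1r, 23 cells held 50% of all UMIs, and for C1qa only 6 cells did. Fcgr1 was high in Mo/KC alone, so a likeness to it over the 9 cell types, which share libraries, says little more than that a gene was high there too. By this measure, the 5 genes with at least 100 CPM in Mo/KC whose log2(CPM + 1) followed that of Fcgr1 most closely were Trem2 (Pearson's r = 0.961), Ctss (0.945), Cd68 (0.931), Pld4 (0.931) and Ly86 (0.927).

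Against G and HPSC, a gene was called higher where its CPM was at least 4-fold higher in each library, among genes with at least 50 CPM in either type. Counts under 3 were set to 3 in the denominator. By this rule, 93 of 2967 genes were higher in Mo/KC than in G (3.13%) and 64 were lower (2.16%). Against HPSC, 169 of 3171 genes were higher (5.33%) and 61 were lower (1.92%). The median ratio over all genes compared was 1.05 against G and 0.933 against HPSC. No test lies behind these calls, which are a rule of size in 1 liver.

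Most genes shared by monocytes and macrophages were higher than in HPSC. Of the 14 listed, 13 could be compared, and 12 were higher than in HPSC, with a median ratio of 19.0, while 7 were higher than in G, with a median ratio of 10.2. Ctss, a lysosomal protease of antigen-presenting cells, had 692 and 385 CPM by library, against 2.11 CPM in G and 19.6 CPM in HPSC. Aif1, a calcium-binding protein of macrophages, had 259 and 168 CPM and no UMI in G, which makes it at least 262-fold higher in Mo/KC. By contrast, Lyz2, the lysozyme of myeloid cells, was close in Mo/KC (8929 CPM) and G (8112 CPM), with ratios of 1.02 and 1.26 by library, and was 66.8-fold higher than in HPSC. Tyrobp and Fcer1g, adaptor chains of activating receptors, were likewise called higher against HPSC (ratios of 5.10 and 7.94) and not against G (1.64 and 1.47).

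Among the 15 Fc receptor and complement genes, 10 of 11 compared were higher than in HPSC, and 7 of 13 were higher than in G. C1qb had 1014 and 573 CPM by library, and C1qc had 796 and 376 CPM. Against HPSC, C1qb was 558-fold higher (95% interval 293 to 1223) and C1qc 734-fold higher (313 to 2266) over both libraries. With counts under 3 set to 3, the ratios by library were 1165 and 256 for C1qb and 915 and 294 for C1qc. Cfp, the complement regulator properdin, had 260 CPM and was 6.47-fold higher than in G. Fcgr3 had 386 CPM in Mo/KC and 558 CPM in G, and was called higher only against HPSC (ratio 7.65).

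Of the 15 engulfment and scavenger receptor genes, only 2 reached 50 CPM in Mo/KC. Marco, a scavenger receptor that binds bacteria and particles, had 202 and 322 CPM by library, with no UMI in G and 2 UMIs in HPSC. Timd4, the receptor TIM4 for phosphatidylserine on dying cells, had 94.3 and 89.2 CPM and no UMI in either, so it was at least 115-fold higher than in G and at least 200-fold higher than in HPSC. Stab1 and Mrc1, scavenger receptors that sinusoidal endothelium shares, were lower in Mo/KC (34.5 and 14.7 CPM) than in endothelial cells (EC, 147 and 141 CPM). Of the 14 macrophage genes listed further below, 8 could be compared, and all 8 were called higher than in G and in HPSC. Among them, Cd5l had 62.7 CPM in 16 cells and no UMI in G or HPSC. Folr2 had 36.4 CPM in 16 cells, likewise with no UMI in either. Several other genes of adult Kupffer cells were at or near 0 in Mo/KC. Cd163 had no UMI, which allows up to 1.92 CPM, Vsig4 and Siglec1 had 1 UMI each, and Clec4f had 7 UMIs in 5 cells.

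Genes of iron and heme recycling were led by ferritin. Of 9 compared, 3 were higher than in G and 3 higher than in HPSC. Hmox1, which degrades heme, had 710 and 540 CPM by library, or 106-fold more than in G (69.4 to 169) and 168-fold more than in HPSC (112 to 264). Slc40a1, the iron exporter ferroportin, had 180 and 167 CPM, 9.91-fold more than in G. Slc11a1, a metal transporter of phagosomes, had 94.3 and 51.9 CPM, 22.2-fold more than in G. Ftl1, the ferritin light chain, reached 11440 CPM against 3516 in G and 2862 in HPSC, a ratio of 3.25 to G and, by library, of 4.21 and 3.93 to HPSC, which did not meet the rule. Spic, a transcription factor of iron-recycling macrophages, had 33 UMIs in 16 cells.

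Many lysosomal genes were higher in Mo/KC, with 14 of 21 called higher than in HPSC and 9 higher than in G. Their summed level was 10949 CPM in Mo/KC, against 3516 CPM in G and 1799 CPM in HPSC, and Ctsc gave the most UMIs. Ctsc, which activates granule proteases, had 1703 and 1304 CPM, 13.1-fold more than in G. Lgmn, the protease legumain, had 675 and 413 CPM, against 1.06 CPM in G and 23.4 CPM in HPSC. The exception in the list was Cd63, at 119 CPM in Mo/KC and 886 CPM in G.

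Among 17 myeloid transcription factors, Spi1 (687 CPM) and Cebpb (683 CPM) had the most UMIs. Nr1h3 (67.8 CPM), Irf5 (252 CPM) and Id3 (347 CPM) were higher than in both G and HPSC. Cebpe, which drives granule formation in neutrophils, had 40.3 CPM against 524 CPM in G. Gfi1, a repressor of the monocyte fate, had no UMI in Mo/KC and 108 UMIs in G. Myb, a progenitor factor, had 14.1 CPM against 128 CPM in G and 114 CPM in HPSC. Myb and Adgrg1 (14.1 against 109 and 229 CPM) were the only 2 genes with at least 100 CPM in both G and HPSC that were lower in Mo/KC than in each.

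Ranked by the smaller of the pooled ratios to G and HPSC, the highest genes were, in order, C1qc, C1qb, C1qa, Marco, Aif1, Fcna, Trem2, Hmox1, Fcgr1 and Lpl. Next came Fcgrt, Ctss, Lgmn, Hpgd, Pf4, Ifi30, Ctsc, Csf1r, Ly86 and Ctsh. They were the first 20 of 40 genes with at least 100 CPM in Mo/KC that met the rule against both types in each library. Of the 20, 14 stood in the lists above. Among the 20, Pf4 lay below its level in free RNA in each library. Fcna, the lectin ficolin A, had 169 and 156 CPM with 1 UMI each in G and HPSC, and Lpl, lipoprotein lipase, had 139 and 120 CPM with 7 UMIs in G and none in HPSC.

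The MHC class II genes H2-Aa, H2-Eb1 and H2-Ab1 were scarce. H2-Aa had 6 UMIs, all in 1 cell, H2-Eb1 4 and H2-Ab1 2. H2-DMa had 88.2 CPM, 6.19-fold more than in G, and the costimulatory Cd86 72.2 CPM, 15.2-fold more. Cd74 had 43.5 CPM, against 0.528 CPM in G and 22.2 CPM in HPSC. The class II list had 231 CPM in sum, against 27.7 CPM in G and 75.2 CPM in HPSC. Free RNA held 759 and 16.8 CPM of it by library. Among cytokines and growth factors, Ccl24 had 108 and 93.7 CPM, Ccl2 78.1 and 41.8 CPM, and Igf1 88.4 and 102 CPM. Ccl24 and Igf1 had no UMI in G. S phase and mitosis genes were close to their levels in G and HPSC. None of 11 S phase genes and none of 12 and 13 mitosis genes compared met the rule in either direction, with median ratios of 1.03 to G and 1.10 to HPSC for the S phase genes. Over all genes compared, 3.13% were higher and 2.16% lower against G, and 5.33 and 1.92% against HPSC. Lists this short would hold few called genes at these shares.

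**Figure D2:**
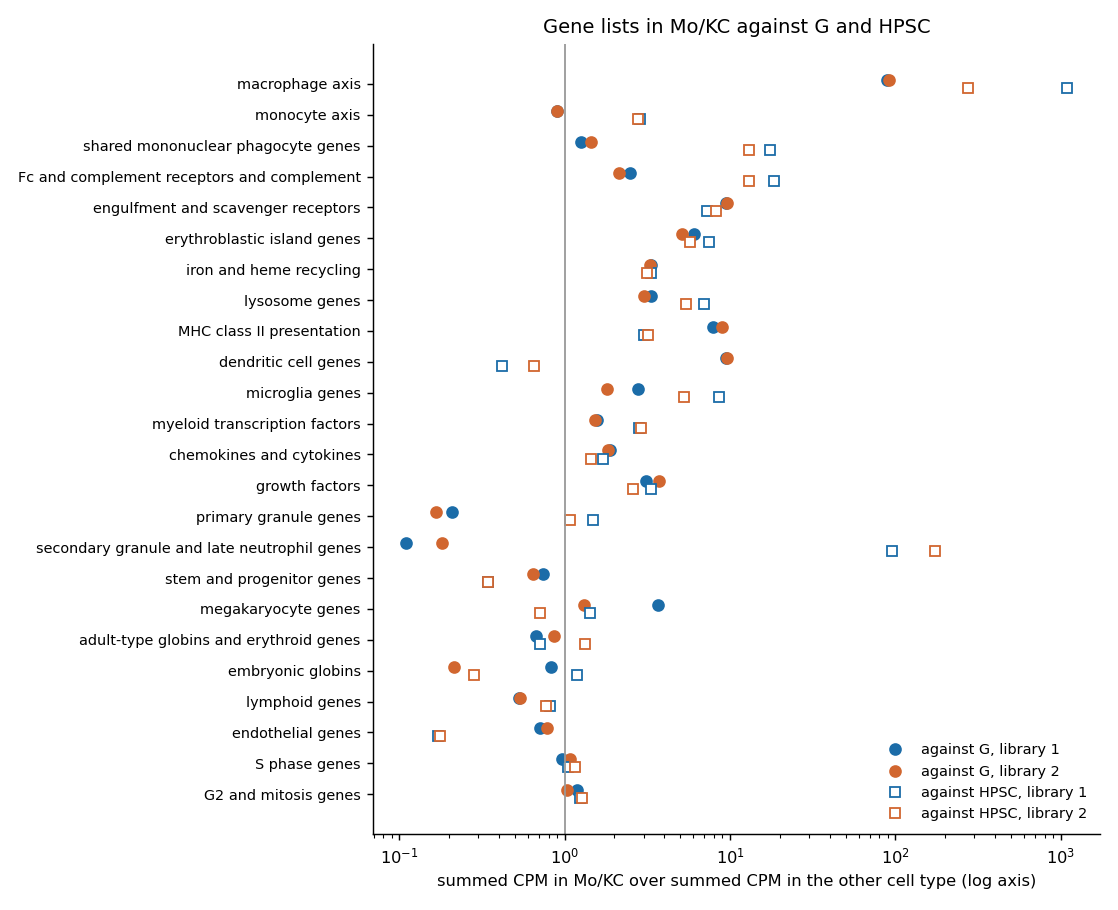
Ratio of the summed CPM of each gene list in Mo/KC to that in G (filled circles) and HPSC (open squares), by library (colour), on a logarithmic x axis, for the 24 lists with at least 50 CPM in Mo/KC. The macrophage genes lie far right of 1 against both types, the secondary granule genes lie right of 1 against HPSC and left of 1 against G, and the cell cycle lists lie near 1.

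Granule genes set Mo/KC apart from G in a particular pattern. S100a8 and S100a9, the subunits of calprotectin, had 4942 and 3312 CPM in Mo/KC, in 56 and 55 of 114 cells, against 15549 and 19536 CPM in G. After thinning, S100a8 had a UMI in 40.6% of Mo/KC and 10.7% of Eryb cells, and free RNA of library 2 held 527 CPM of it. Yet Ngp and Camp, which mark the secondary granules of neutrophils, had 6.39 and 8.31 CPM in Mo/KC against 8658 and 7872 CPM in G. Free RNA held 266 and 213 CPM of Ngp and 209 and 238 CPM of Camp, so their levels in Mo/KC were below that of free RNA. Of the primary granule genes, Mpo had 675 and 551 CPM, Elane 324 and 128 CPM and Prtn3 900 and 756 CPM, against 4255, 1131 and 2608 CPM in G. In HPSC, Mpo had 733 CPM and Prtn3 558 CPM, near the Mo/KC level, and Elane had 2.74 CPM.

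Markers of other cells that the cluster could hold were low, with a few exceptions. Megakaryocyte genes had 120 CPM in sum, of which Pf4 gave 109 CPM in 32 cells. By library, Pf4 had 169 and 62.1 CPM, less than in free RNA (228 and 186 CPM). It had 503 CPM in the cells with macrophage genes alone described next and 9.57 CPM in those with monocyte genes alone. Lymphoid genes had 93.3 CPM, nearly all from Cd79b (92.7 CPM in 65 cells). The lists of mast cell, basophil and eosinophil genes and of mesenchymal genes had 1.28 CPM in sum each. Hepatoblast genes had 39.0 CPM in sum, and endothelial genes 81.8 CPM, against 468 CPM in HPSC. Egfl7 gave the most endothelial UMIs (42.2 CPM), and Kdr and Cldn5 had none. Cdh5, an endothelial cadherin, had 33 UMIs in 15 cells (21.1 CPM), against 337 CPM in EC, and 14 of these cells were among the 23 with macrophage genes alone that are described next (133 CPM there). Cd34, which marks progenitors, had 292 CPM in 71 cells, against 377 CPM in HPSC, while Kit had 7 UMIs.

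How the macrophage and monocyte genes were distributed among the single cells was examined with a list for each. The macrophage list held 14 genes (C1qa, C1qb, C1qc, Adgre1, Mrc1, Cd5l, Timd4, Vsig4, Stab1, Folr2, Cd163, Marco, Trem2 and Clec4f), and the monocyte list held 10 (Ly6c2, Ccr2, F13a1, S100a4, Ms4a6c, Plac8, Chil3, Fn1 and Vcan among them). In 104 cells thinned to 3600 UMIs in 1 random draw, a list was taken as present with at least 2 UMIs. Monocyte genes alone were present in 63 cells (60.6%, 50.5 to 70.0%), macrophage genes alone in 23 (22.1%, 14.6 to 31.3%) and both in 18 (17.3%, 10.6 to 26.0%). No cell lacked both. By library, macrophage genes alone were present in 8 of 46 and 15 of 58 cells, both in 13 of 46 (28.3%) and 5 of 58 (8.62%), and monocyte genes alone in 25 of 46 and 38 of 58. The 10 cells of library 1 that thinning left out lie among its 12 cells under 4387 UMIs, of which 11 held at least 2 C1q UMIs, so the macrophage share of library 1 is too low here and the order of the libraries cannot be read from these shares. In library 2, no cell under 4387 UMIs was called, and 74 uncalled barcodes below that number held at least 3 marker UMIs. Whether its macrophage share is too low as well was not tested. The shares describe called cells of this depth and not the make-up of the liver. Plac8, which gave 59.8% of the UMIs of the monocyte list, was in 62 of the 63 cells with monocyte genes alone, against 29 for Ly6c2 and 24 for Ccr2, and was found in 86.9% of G and 72.0% of HPSC after thinning. These are ranges of 2 sums of UMIs, not cell types, and 28 cells lay within 1 UMI of the limit for macrophage genes and 8 for monocyte genes.

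The 2 lists nonetheless gave opposite ends. Macrophage UMIs ranged from 0 to 100 per cell, with a median of 1, and monocyte UMIs from 0 to 28, with a median of 9. At least 10 macrophage UMIs were found in 24 cells and at least 10 monocyte UMIs in 50 cells, but no cell held 10 of both. Of the 18 cells with both, 10 had more monocyte and 8 more macrophage UMIs. Among G cells thinned likewise, 236 of 266 had monocyte genes alone, 3 both and none macrophage genes alone. The sum of the monocyte list therefore does not separate monocytes from granulocytes. Of 6 monocyte genes compared, 2 were called higher than in G, Ccr2 (148 against 14.5 CPM) and Ms4a6c (285 against 55.7 CPM). Ly6c2 was not called (332 against 130 CPM). Among HPSCs, 232 of 419 had monocyte genes alone, and in EC, which share several of the macrophage genes, 11 of 45 had macrophage genes alone.

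**Figure D3:**
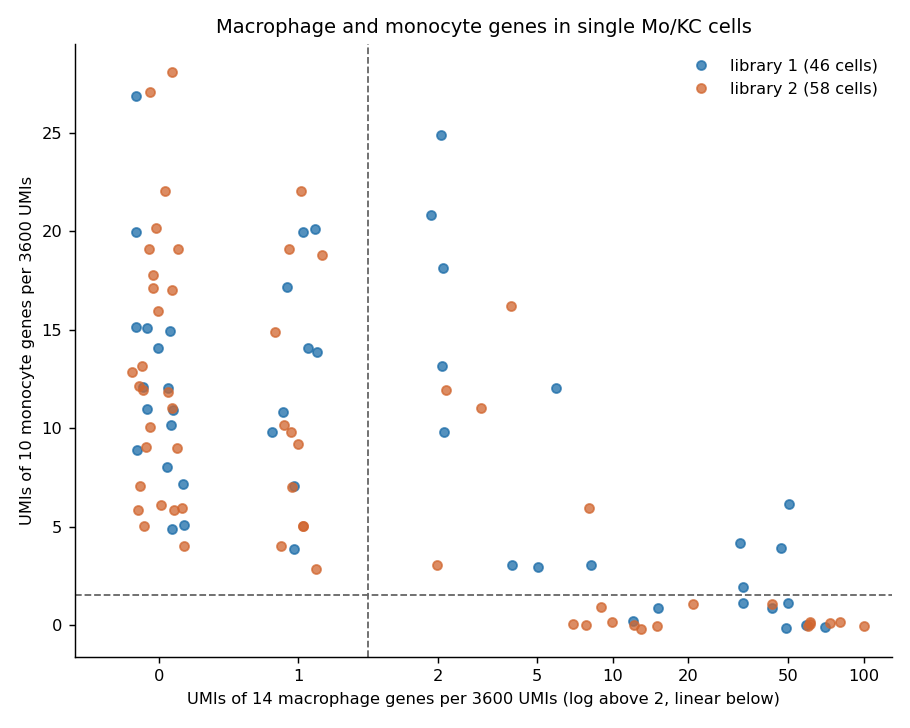
UMIs of the 14 macrophage genes (x axis, logarithmic above 2 and linear below) and of the 10 monocyte genes (y axis) in each of 104 Mo/KC cells thinned to 3600 UMIs, coloured by library, with a small random shift of the points. The dashed lines mark the limit of 2 UMIs, and no cell has 10 or more UMIs of both lists.

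The C1q genes lie side by side on chromosome 4 of the build GRCm38, C1qb at 136880129 to 136886187, C1qc at 136889804 to 136893065 and C1qa at 136895917 to 136898803, all on the minus strand. In the thinned cells with macrophage genes alone, C1qa and C1qb were found in 23 of 23 cells and C1qc in 22. In cells with both, they were found in 7, 10 and 8 of 18 cells, and in none of the 63 cells with monocyte genes alone. Over all UMIs of the same cells, C1qa had 2665 and 1646 CPM by library in cells with macrophage genes alone, 713 and 22.9 CPM in cells with both and 2.87 CPM in cells with monocyte genes alone. Single cells with both held from 0 to 43 C1qa UMIs, so the pooled levels do not describe each of them. These genes were in the list that set the ranges, so this is a description.

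Marco and Timd4, on chromosomes 1 and 11, were narrower still. Marco had a UMI in 15 of 23 thinned cells with macrophage genes alone (5 in library 1, 10 in library 2) and Timd4 in 17 (6 and 11), with 13 cells holding both. Neither had a UMI in the other 81 cells. Both genes were in the list that set the ranges, so this too is a description. The 250 bases before the RefSeq start of C1qb, Marco and Timd4 are printed here because these genes were high together in cells with macrophage genes alone, C1qb also having UMIs in cells with both. They are the RefSeq promoters of GRCm38.p6 on the strand of each gene. Capitals mark GAGGAA or its reverse complement TTCCTC, a core of the sites bound by PU.1, the factor that Spi1 encodes.
C1qb, chr4:136886201-136886450, minus strand: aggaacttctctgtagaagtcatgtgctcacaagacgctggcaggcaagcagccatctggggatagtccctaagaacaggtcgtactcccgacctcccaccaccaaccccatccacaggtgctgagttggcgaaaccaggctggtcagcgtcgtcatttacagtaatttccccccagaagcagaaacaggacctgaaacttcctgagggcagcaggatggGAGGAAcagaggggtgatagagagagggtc
Marco, chr1:120505025-120505274, minus strand: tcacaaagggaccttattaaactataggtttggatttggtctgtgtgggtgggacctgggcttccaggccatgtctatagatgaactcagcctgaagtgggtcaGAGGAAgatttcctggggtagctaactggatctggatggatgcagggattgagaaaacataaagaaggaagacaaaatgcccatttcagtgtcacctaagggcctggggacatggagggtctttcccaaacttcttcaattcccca
Timd4, chr11:46810549-46810798, plus strand: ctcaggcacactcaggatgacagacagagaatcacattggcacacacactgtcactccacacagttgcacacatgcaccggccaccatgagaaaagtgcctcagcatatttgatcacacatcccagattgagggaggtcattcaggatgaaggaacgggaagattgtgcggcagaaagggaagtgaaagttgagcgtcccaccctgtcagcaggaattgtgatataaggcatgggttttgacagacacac
The motif was found 1 time in C1qb and Marco each and was not found in Timd4, the C1qc window, which overlaps the gene as GENCODE places it and is not printed, held it 1 time, and 23.3% of 32851 RefSeq promoter windows of this length held it on either strand. A second motif, searched in the same windows, was found in C1qb and Timd4 but not in Marco or C1qc, and is not described further. A match describes these letters and is not a bound site.

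Outside the lists that set the ranges, genes of iron recycling followed the macrophage genes. Hmox1 had 1866 and 2573 CPM by library in cells with macrophage genes alone, 1087 and 34.3 CPM in cells with both and 42.4 and 121 CPM in cells with monocyte genes alone. Among the 18 cells with both, 1 cell of library 1 held 143 of the 192 Hmox1 UMIs, and 3 had a UMI after thinning, so the pooled level does not describe these cells. Slc40a1 had 1124 and 888 CPM, 61.2 CPM, and 2.49 and 12.4 CPM in the same order. After thinning, 19 of 23 cells with macrophage genes alone held both Hmox1 and Slc40a1, against 3 of the other 81 cells. Spic had 120 CPM in cells with macrophage genes alone and no UMI in the other ranges. Vcam1, which binds erythroblasts to island macrophages, had 162 CPM in the same cells and no UMI in the other ranges. Of the other island genes listed, Maea went the other way (79.0, 99.5 and 104 CPM), and Siglec1 and Palld had 1 UMI each with macrophage genes alone. Dnase2a had 87.3, 61.2 and 40.2 CPM, and Itgav and Epor had 6 and 9 UMIs with macrophage genes alone. The summed level of the 12 iron and heme genes was 46544, 17521 and 9918 CPM over the 3 ranges, and that of the 21 lysosomal genes 19934, 12608 and 8194 CPM. Free RNA held 18887 and 11397 CPM of the iron and heme genes by library, more than cells with monocyte genes alone (10235 and 9721 CPM).

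Outside both lists, 1779 genes reached 100 CPM in a range. Of these, 143 (8.04%) were at least 2-fold higher with macrophage genes alone in each library, and 117 (6.58%) with monocyte genes alone. The 10 highest of the former by fold were Fcna, Igf1, Slc40a1, Nr1h3, Il18bp, Ccl24, Cela1, Tmem86a, Smagp and Vcam1. Fcna had 964 CPM and no UMI in the other ranges. Igf1, an insulin-like growth factor, had 574 CPM in cells with macrophage genes alone, 7.65 CPM in cells with both and no UMI in cells with monocyte genes alone. Nr1h3, which encodes the sterol receptor LXR alpha, had 374 CPM and 3.83 CPM at the ends, a ratio of 97.7 (36.9 to 366).

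The 10 highest with monocyte genes alone were S100a8, S100a9, Stfa1, Prtn3, Mpo, Hp, Gm5483, Fcnb, BC100530 and Napsa. S100a8 had 5124 and 6502 CPM by library in these cells and 23.2 and 6.48 CPM in cells with macrophage genes alone. Stfa1, Gm5483 and BC100530 are members of 1 family of protease inhibitors with similar sequences, so how the reads were split among them is uncertain. Hp, haptoglobin, had 678 CPM in cells with monocyte genes alone and no UMI in cells with macrophage genes alone, and Fcnb, ficolin B, had 479 CPM and none. The ficolin genes thus stood at opposite ends, Fcna with the macrophage and Fcnb with the monocyte genes. Cd34 had 342 CPM in cells with monocyte genes alone, 364 CPM in cells with both and 16.6 CPM in cells with macrophage genes alone.

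Csf1r had 565, 398 and 272 CPM over the 3 ranges. Fcgr1 had 371 and 143 CPM by library in cells with macrophage genes alone, 362 and 229 CPM in cells with both and 142 and 126 CPM in cells with monocyte genes alone, so the order of the first 2 ranges turned between the libraries. Tyrobp was found in 19 of 23, 18 of 18 and 62 of 63 thinned cells. Lyz2 had 1359 CPM in cells with macrophage genes alone and 11047 and 10150 CPM in the others. Among the cells with both, those without a C1q UMI held 113 to 878 Lyz2 UMIs each, and those with C1q UMIs 0 to 103. The level of 11047 CPM thus does not describe these cells. Cell cycle genes were found throughout, with medians of 7, 4 and 8 S phase UMIs and 4, 2.5 and 7 mitosis UMIs per 3600 over the 3 ranges. In library 2, cells with macrophage genes alone and at least 4.87% globin UMIs held 6 to 15 S phase UMIs, and those below 0 to 7. In library 1, where such cells had at most 2.52% globin UMIs, they held 0 to 10. Whether the cell cycle UMIs came from erythroid RNA in these droplets was not tested.

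**Figure D4:**
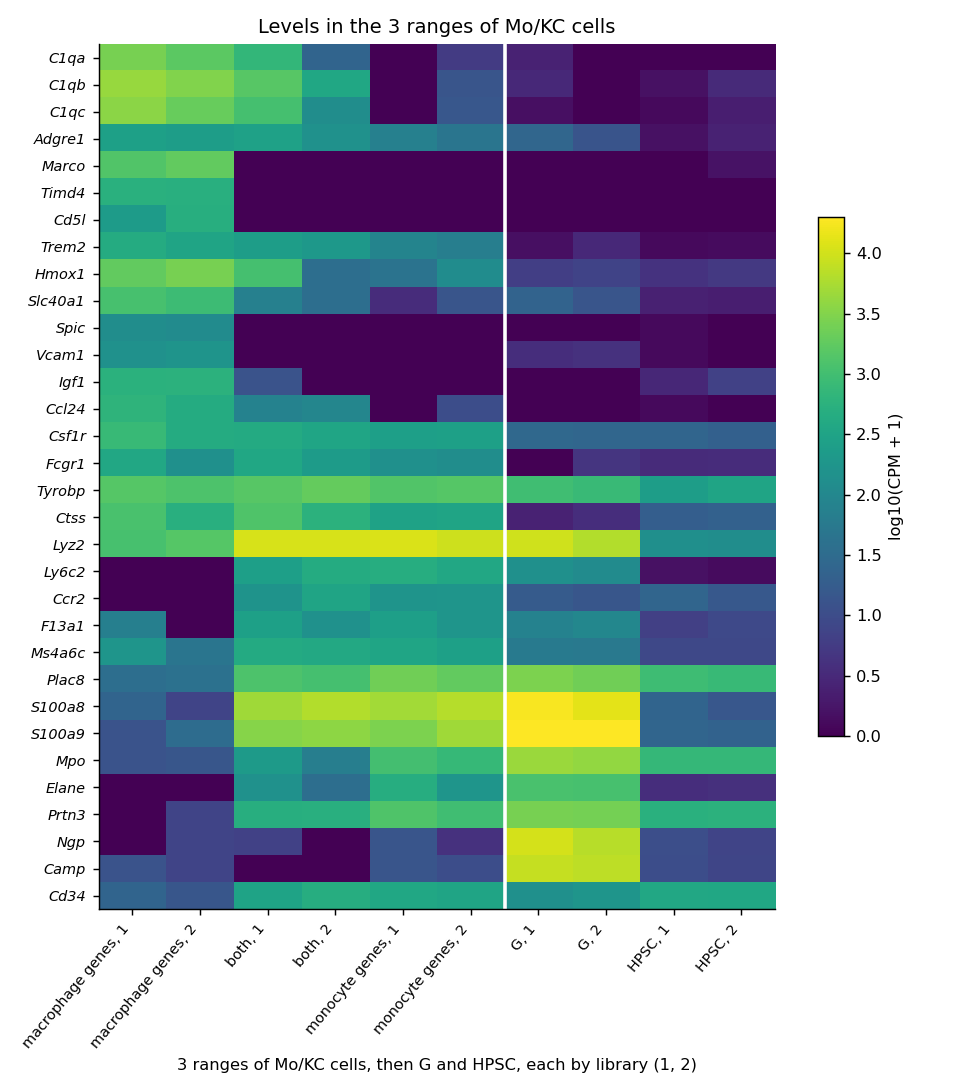
Level of 32 genes, as log10(CPM + 1), in the 3 ranges of Mo/KC cells (macrophage genes alone, both, monocyte genes alone) and in G and HPSC, each by library. Marco, Timd4, Cd5l, Spic and Vcam1 have UMIs in none of the 81 Mo/KC cells of the other ranges. Of these genes, Marco, Timd4 and Cd5l were in the list that set the ranges. Ngp and Camp are high in G alone.

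The 63 cells with monocyte genes alone differed among themselves in granule genes. At least 2 UMIs of Mpo, Elane and Prtn3 together were found in 36 cells and at least 2 UMIs of S100a8 and S100a9 together in 33, with 22 cells holding both, 14 the first alone, 11 the second alone and 16 none. Ly6c2 had a UMI in 20 of the 22 cells and in 7 of the 11 cells with S100a8 or S100a9, but in 1 of 14 with granule genes alone and 1 of 16 with none. In these 4 groups, taken in the same order with the 11 cells last, Lyz2 had 15836, 3380, 4581 and 27266 CPM and Cd34 289, 411, 439 and 44.2 CPM. Each group is a range of UMI counts, held cells of both libraries and rests on 11 to 22 cells.

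UMIs per cell also differed between the ranges. The median was 7851 UMIs in cells with macrophage genes alone, 14075 in cells with both and 17179 in cells with monocyte genes alone. Of the 12 Mo/KC cells of library 1 with fewer than 4387 UMIs, 11 held at least 2 C1q UMIs, against 15 of the 44 deeper cells of that library. In the 12 shallow cells, Marco had 1891 CPM (95% interval 1389 to 2514) and Hmox1 6597 CPM (5626 to 7688), against 138 and 486 CPM in the deeper cells. No cell under 4387 UMIs was called in library 2, so such cells entered the pooled values from library 1 alone. Among cells of at least 4387 UMIs, the macrophage genes had 2814 CPM in library 1 (2687 to 2946) and 2024 CPM in library 2 (1931 to 2120), against 3178 CPM over all Mo/KC cells of library 1. With that limit in both, Mo/KC made up 1.05% of library 1 and 1.15% of library 2.

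**Figure D5:**
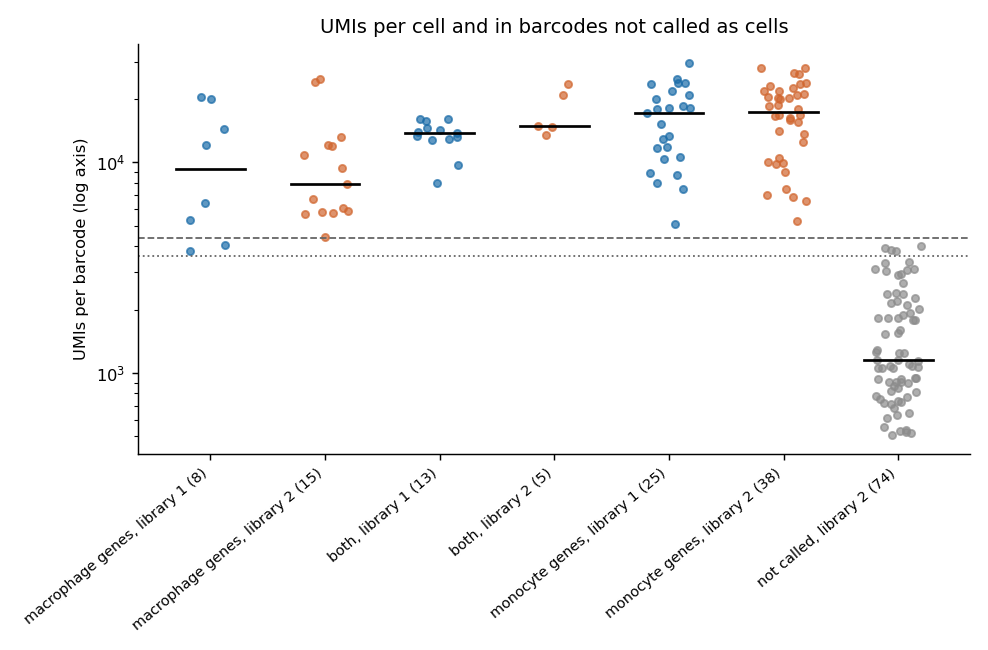
UMIs per barcode (y axis, logarithmic) in Mo/KC cells of the 3 ranges by library, and in the barcodes of library 2 that were not called as cells but held at least 3 marker UMIs, with lines at the medians. The dashed line marks the lowest kept cell of library 2 (4387 UMIs) and the dotted line the thinning depth (3600 UMIs), and all 74 uncalled barcodes lie under the dashed line.

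Adult-type globin RNA, which erythroid cells make and which reaches other droplets as free RNA, differed between the libraries. The genes Hbb-bs, Hbb-bt, Hba-a1 and Hba-a2 made up 1.09% of the UMIs of Mo/KC cells in library 1 and 3.67% in library 2, against 19.3 and 37.9% of free RNA. Single cells had medians of 0.748 and 0.915%, and 1 cell of library 1 and 8 of library 2 had over 10%, with a highest value of 57.9%. Without these 9 cells, the shares were 0.763 and 1.14%. Cells with macrophage genes alone had median globin shares of 1.03% in library 1 and 4.87% in library 2, and cells with monocyte genes alone 0.704 and 0.841%. In UMIs per cell, the medians were 103 and 325 against 110 and 151, at median depths of 9245 and 7851 against 17179 and 17362 UMIs. The source of the globin RNA was not tested.

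Between the libraries, 1651 genes reached 100 CPM in Mo/KC of either one, of which 26 were over 2-fold higher in library 1 and 17 in library 2. The 5 lowest in library 2 were Pgk1, Gstp1, Hmga1, Hist1h2ap and Gm10116. Pgk1, a glycolytic enzyme, had 249 UMIs in library 1 and 6 in library 2, and free RNA differed likewise, at 59.3 and 1.02 CPM. The 5 highest in library 2 were Gm10036, whose free RNA level went the other way (196 and 59.7 CPM), and the 4 globin genes. The header of the count matrix of library 1 names a software version, 3.0.0, other than the methods do, and whether the libraries were counted alike was not tested.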

How the data were processed

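The deposited matrices of each library held raw UMI counts, for every barcode and for those called as cells, and the authors added a table of cell types and clusters. Per the labels, bcl2fastq 2, Cell Ranger 2.1.1, Seurat 3.2.0 and mm10 were used. From the counts, CPM were computed per type and library over all 27998 gene identifiers, of which 56 symbols stood on more than 1 identifier and were left out of comparisons. Intervals are exact Poisson, conditional binomial (ratios) and Clopper-Pearson, at 95%. For a gene without UMIs, 3 counts were taken as the upper limit.

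Thinning drew 3600 UMIs per cell without replacement (seed 1). Named genes are the 4 markers, members of 27 lists, the 20 highest and up to 10 lowest ratios against both G and HPSC, the 10 highest at each end of the ranges, and the 5 highest and lowest between libraries. Members, lists, the promoter motifs and rules were chosen with earlier results of these data known. No further doublets were removed. Single results for some listed genes are not reported here. With 1 liver, no test between animals could be run. The labels speak of 1 liver in 2 technical replicates. Calls and thinning were checked on simulated data. Alternatives were each library alone, filters on cells, CPM and fold, other scales, depths, limits, lists and draws, and other definitions of free RNA. Gene positions are from GENCODE vM21 (GRCm38), and 3 RefSeq promoters are printed. Scripts ran under Python 3.11.15 with scipy 1.17.1, matplotlib 3.10.9, pandas 2.3.3 and numpy 2.4.6.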

Additional observations from a re-analysis of the deposited data

Results flagged for a closer look

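A small number of the barcodes that were not called as cells in library 2 carried several Mo/KC marker UMIs each. Of 5168 uncalled barcodes with at least 500 UMIs and 200 genes, 74 held at least 3 UMIs of Fcgr1, Csf1r, Adgre1, C1qa, C1qb and C1qc. Free RNA at its level in library 2 would give 340.0 marker UMIs over all 5168 barcodes, where 789 were found. Of these, 700 lay in the 74 barcodes, which were chosen for holding them, and the remaining barcodes together held fewer than free RNA would give. The 74 barcodes had a median of 1146 UMIs and at most 4025, and adult-type globin made up 24.1% of their UMIs, against 3.67% in the called Mo/KC cells of that library. In library 1, 225 barcodes met the same limits on UMIs and genes and none held 3 marker UMIs, with 1 marker UMI over all of them where free RNA of that library would give 61.5. Among genes not used to choose the 74 barcodes of library 2, Marco had 1645 CPM (95% interval 1420 to 1896), Hmox1 2101 CPM and Slc40a1 1016 CPM, against 1847, 2573 and 888 CPM in the called cells of library 2 with macrophage genes alone, and 5.10, 20.4 and 19.4 CPM in free RNA. Ly6c2, Mpo and Prtn3 had no UMI in them. Since C1qa, C1qb and C1qc were among the genes used to choose these barcodes, barcodes with monocyte genes would have been found less easily. The number of 74 compares with 58 called Mo/KC cells of that library. Of these called cells, 15 had macrophage genes alone, 5 both and 38 monocyte genes alone, so the 58 are not a like set.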

How the results depend on the processing

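No paired analysis was possible because both libraries belong to the same group. Of 111 recomputed values, 76 stayed within the counting interval or within 1.5 times the count, 35 moved and none reversed. With 1 library left out, Fcgr1 ranged from 139 to 228 CPM, the share of cells with both lists from 12.1 to 28.3% (library 2 gave 8.62% in the draw of the report and 12.1% in a draw of its own), the globin share from 1.09 to 3.67% and the uncalled barcodes from 0 to 74. The filter of 1000 genes and 10% mitochondrial UMIs gave 1.42% of Mo/KC cells. The globin share was 2.75% without the 5% of cells with the most UMIs, and 0.970% without cells over 10% globin, an alternative chosen after seeing the data. Genes higher than in G numbered 172 at 20 CPM, 49 at 100 CPM and 214 at 2-fold, and those higher than in HPSC 276, 103 and 357, with 105 at 8-fold. Without thinning, both lists were present in 46.5% of cells and monocyte genes alone in 32.5%. At 7200 UMIs, both were present in 36.4% and macrophage genes alone in 13%. That depth also left out every cell with fewer UMIs, where cells with macrophage genes alone had a median of 7851. The cells kept thus changed together with the depth. At a limit of 1 UMI, both were present in 44.2% and monocyte genes alone in 40.4%, and at 3 UMIs both in 9.62%. In 10 other draws, the 3 ranges held 19.2 to 23.1% (macrophage genes alone), 15.4 to 22.1% (both) and 56.7 to 61.5% (monocyte genes alone). The number of cells with both thus depends on depth and limit. With at least 1000 UMIs, 45 uncalled barcodes remained over the limits. Keeping only cells with at least 4387 UMIs, also chosen after seeing the data, left every value tried within its interval or within 1.5 times. Depth limits what a single cell shows, since a gene at 100 CPM gives less than 1 UMI in 3600 on average.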

Other observations

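Free RNA differed between the libraries in genes of antigen presentation. In barcodes with 1 to 50 UMIs, Cd74 stood at 340 CPM in library 1 and 4.08 in library 2, H2-Aa 162 and 1.53 CPM, and H2-Ab1 124 and 3.06 CPM. In the Mo/KC cells of library 1, H2-Aa and H2-Ab1 had no UMI and Cd74 had 56.0 CPM. Ctss was also higher in the free RNA of library 1, at 95.7 against 5.61 CPM. The source of these RNAs was not tested.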
